A study of Arabidopsis thaliana with 24 samples.

Results

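The 78 genes described here are those of 31229 single-gene entries in the deposited tables whose annotated title contains the words heat shock. The titles placed 13 of them among the small heat shock proteins (small HSPs), 9 in the HSP70 family, 2 in the HSP90 family, 30 in the DnaJ family and 1 among the heat shock factors (HSFs). For 23 genes the title gave no such class, and these include HSP101, the HSP60 chaperonins and several J-domain proteins named by symbol only. All 78 matched a RefSeq gene on the same chromosome. Total RNA was sequenced from Arabidopsis thaliana (Col-0) root protoplasts that a cell sorter had split by GFP intensity into populations labelled Proximal, Medial and Distal. Of the 24 libraries, 3 per zone represent root meristem cells of the PUB25 line, 3 per zone those of the SPT line, and 2 per zone meristematic xylem cells of the TMO5 line. No treatment, heat or other, and no plant age is given in the labels, and they do not say what the zone names are relative to. No promoter is named for the reporters, so the line names are used as the labels give them.

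The authors gave levels as FPKM, which divides sequenced fragments by transcript length and by the size of the library, with a single pooled value for each gene in each zone of a line. No value per library was at hand, so no level or fold below carries an SD, and the depth per library is unknown. Folds are log2 ratios of FPKM + 1. A gene is said to have risen or fallen only where its q value (adjusted p-value), taken from the authors' deposited table, was under 0.05. Each line has its own table, and levels set side by side across lines were not tested. Libraries that share a group label are not said to come from separate plants, and how the authors' test pooled them is not stated. In sorted bulk material, fewer cells of a type and less RNA per cell cannot be told apart. The entry AT2G01021 held between 57.2% and 77.8% of all FPKM in the 9 line and zone values, and without it the sums ran from 493342 to 694565 FPKM. The meristem regulator PLT1 had 47.4, 18.3 and 7.94 FPKM over the Proximal, Medial and Distal cells of the PUB25 line and 60.9, 8.05 and 1.41 FPKM in the SPT line. The TMO5 transcript itself stood at 481, 354 and 240 FPKM in the Proximal, Medial and Distal cells of its own line. There the phloem marker APL was listed at 0 in every zone, and the root cap markers SMB and FEZ did not exceed 0.454 and 0.261 FPKM. The epidermis marker WER had 6.73, 7.51 and 6.15 FPKM in this line, and the endodermis marker CASP1 4.42, 6.45 and 3.77 FPKM. GL2, also of the epidermis, and SCR, also of the endodermis, did not exceed 0.544 and 0.447 FPKM there.

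Heat shock proteins are molecular chaperones that bind unfolded proteins. HSP70 proteins fold clients in cycles of ATP hydrolysis that DnaJ (J-domain) partners start, HSP90 proteins mature signalling clients, HSP60 forms the chaperonin cage of mitochondria, HSP101 pulls proteins out of aggregates, and small HSPs hold unfolding proteins in a refoldable state. HSFs switch on many of these genes in heat by binding inverted repeats of a short element, while many HSP70, HSP90 and HSP60 genes are also expressed without heat.

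The letters below show that element beside 5 of the 6 heat shock genes called in the xylem cells of the TMO5 line, all of which rose in Distal cells. Each is a 30-base stretch of the reference (RefSeq, assembly TAIR10.1), written on the strand of its gene, with capitals on the run of inverted units, GAANNTTC or TTCNNGAA, each its own reverse complement. The HSP90.1 stretch (chr5:21352254-21352283, plus strand) lies before the annotated gene start. The stretches of HSP70 (chr3:3993845-3993874, minus strand), AT2G20560 (chr2:8849995-8850024, minus strand), HSP101 (chr1:27940322-27940351, minus strand) and HSP17.6II (chr5:3883035-3883064, minus strand) lie in the annotated leader. HSP90.1, HSP70 and AT2G20560 have 3 alternating units in the stretch, and HSP101 and HSP17.6II have 2. All 5 stretches come from the 500 bases before the coding start, a window added after the data were seen. In that window 2 units occurred in 33.8% of all protein-coding genes and 3 units in 1.19%. The first window searched, the 250 bases before the annotated gene start, held 2 units in none of the 6 genes, against 16.1% of all.
HSP90.1: aacgaaaaGAACTTTCTGGAAttcgtttgc
HSP70: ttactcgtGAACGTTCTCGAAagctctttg
AT2G20560: tcagagatTTCTCGAACGTTCcacagaatt
HSP101: ataaaataagcGAAAATTCcacgtgacatc
HSP17.6II: gaccaagacgtTTCTCGAAcaatacggaag

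Of the 78 genes, 57 had at least 1 FPKM in all 9 line and zone values, 62 had a mean of at least 1 FPKM in every line, and 6 stayed under 1 FPKM throughout. HSC70-1, the constitutive cytosolic HSP70, was the most abundant of them in every zone of the PUB25 and TMO5 lines, at up to 1042 FPKM in Proximal xylem cells. In SPT Medial and Distal cells the place was taken by HSP70-3 (AT3G09440), at 545 and 504 FPKM. The 30 DnaJ genes were expressed at moderate levels, with zone medians between 6.45 and 9.42 FPKM and a highest single value of 53.1 FPKM. The 13 small HSP genes had zone medians between 2.25 and 6.75 FPKM.

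**Figure D1:**
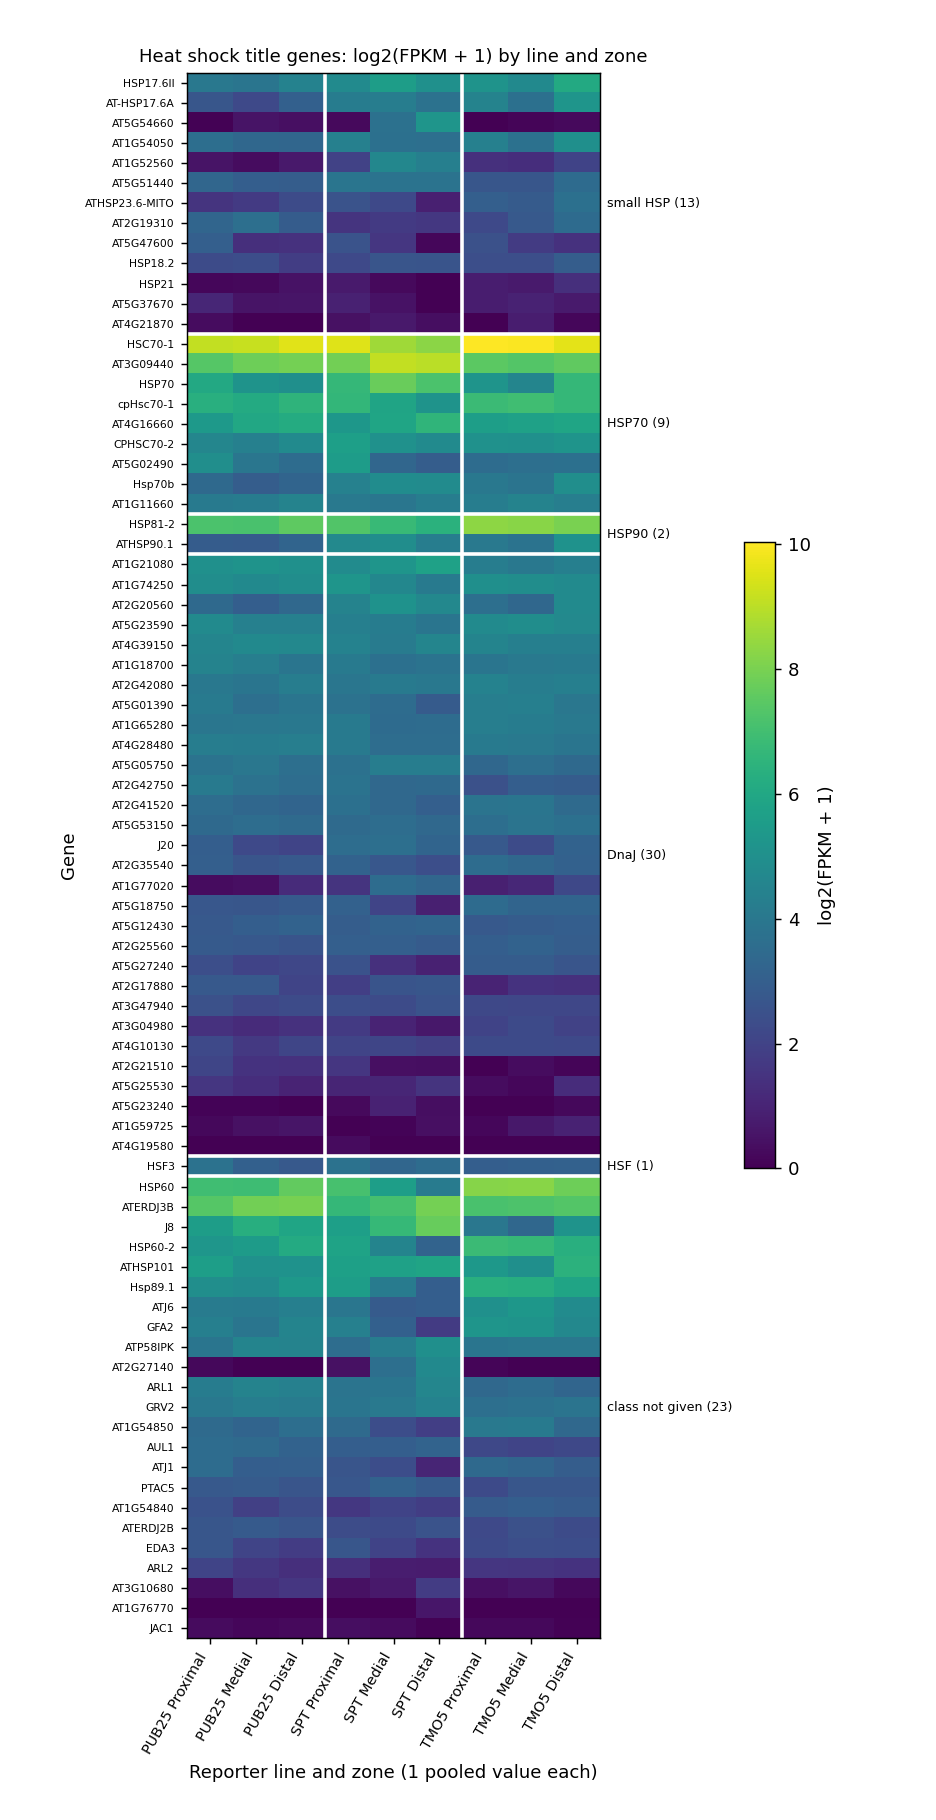
Levels of the 78 genes as log2(FPKM + 1), 1 row per gene grouped by the class its title gives, 1 column per line and zone; each cell is 1 pooled value with no error, and symbols are those of the deposited tables (ATHSP101 is HSP101). Bright rows such as HSC70-1 are abundant in all columns, while HSP60 darkens from Proximal to Distal in the SPT line and the rows of AT5G54660 and AT2G27140 are bright only in SPT Medial and Distal cells.

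Between Distal and Proximal cells of the PUB25 line, 11 of the 78 genes rose and 15 fell in the authors' deposited table. That is 33.3% of the genes, against 19.4% of all single-gene entries and 37.3% of those with a mean of at least 1 FPKM. The median log2 fold was −0.02, against −0.01 for entries of at least 1 FPKM. Between the same zones of the SPT line, the authors' deposited table gave 10 rises and 21 falls, together 39.7% of the genes, against 25.6% of all entries and 47.9% of those of at least 1 FPKM. Their median log2 fold was −0.15, against 0.07 for entries of at least 1 FPKM. In both meristem lines the share of called heat shock genes therefore lay between both backgrounds.

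The other zone pairs of the meristem lines gave fewer calls in the authors' deposited table. For Medial over Proximal, 6 genes rose and 13 fell in the PUB25 line (24.4%, against 13.8% of all entries and 26.7% of those of at least 1 FPKM). In the SPT line 7 rose and 10 fell for that pair (21.8%, against 18.6% and 34.9%). For Distal over Medial, 9 rose and 3 fell in the PUB25 line (15.4%, against 11.7% and 22.6%), and 7 rose and 8 fell in the SPT line (19.2%, against 12.0% and 22.4%). Over all zone pairs, 37 genes were called in the PUB25 line (47.4%, against 24.5% of all entries and 47.0% of those of at least 1 FPKM), 35 in the SPT line (44.9%, against 29.4% and 54.8%) and 6 in the TMO5 line (7.69%, against 1.34% and 2.87%). In all, 50 of the 78 were called in at least 1 line and 28 in none. These 50 are 64.1% of the genes, against 37.0% of all entries and 65.2% of those with a mean of at least 1 FPKM in at least 1 line.

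A group of chaperones of mitochondria had calls in opposite directions in the meristem lines. They are 6 genes, grouped by this compartment after their values had been seen, namely HSP60 and HSP60-2 (chaperonin subunits), Hsp89.1 (a mitochondrial HSP90), GFA2 and ATJ1 (J-domain partners) and HSP23.6-MITO (a small HSP). In SPT Distal cells all 6 fell relative to Proximal cells in the authors' deposited table, with a median log2 fold of −2.59, while 12.3% of all entries and 23.1% of those of at least 1 FPKM fell there. In PUB25 Distal cells 4 of the 6 rose in the authors' deposited table, ATJ1 fell, and the median log2 fold was 0.51, while 10.4% of all entries and 19.9% of those of at least 1 FPKM rose there. Since the group was made with these values in view, its counts are a description only. The small HSP genes AT1G52560 and AT5G51440, which may also be mitochondrial, were left out of it. In SPT Distal over Proximal cells AT1G52560 rose (log2 fold 2.33, q = 0.000359) and AT5G51440 had no call (q = 0.871), by the authors' deposited table. Neither was called for that pair in the PUB25 line.

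HSP60 (chr3:8668889-8672631) stood at 136, 48.0 and 16.9 FPKM in the Proximal, Medial and Distal cells of the SPT line, a log2 fold of −2.94 for Distal over Proximal with q = 0.000359 in the authors' deposited table. In the PUB25 line it stood at 124, 120 and 193 FPKM, a log2 fold of 0.64 with q = 0.00142 in that table. The Proximal levels of both lines were thus near each other, and the Distal levels lay apart. HSP60-2 (chr2:14074843-14078744), encoding a second HSP60 subunit, had 55.2, 21.7 and 8.18 FPKM in the SPT line and 37.1, 44.8 and 69.6 FPKM in the PUB25 line. Its Distal over Proximal log2 folds were −2.61 (q = 0.000359) and 0.89 (q = 0.000407) in these lines, by the q values of the authors' deposited tables.

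Hsp89.1 (chr3:2479034-2484213) had 46.5, 17.2 and 7.03 FPKM in the SPT line, a fall of the same order, with a log2 fold of −2.56 and q = 0.000359 in the authors' deposited table. In the PUB25 line it had 30.01, 27.9 and 39.4 FPKM, and its log2 fold of 0.38 (q = 0.0331 in the authors' deposited table) was close in size to the shift of −0.31 that equal FPKM sums would give. HSP23.6-MITO was scarce, with 4.99, 3.66 and 0.829 FPKM in the SPT line and 1.88, 2.25 and 3.88 FPKM in the PUB25 line. It fell in SPT Distal cells (log2 fold −1.71, q = 0.0153) and rose in PUB25 Distal cells (0.76, q = 0.0382) in the authors' deposited tables.

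GFA2 had 19.9, 7.45 and 2.37 FPKM over the Proximal, Medial and Distal cells of the SPT line, and fell by 2.63 on the log2 scale in Distal cells with q = 0.000359 in the authors' deposited table. Its PUB25 levels were 19.3, 14.05 and 22.3 FPKM, and the Distal over Proximal difference there did not pass (q = 0.351). In the TMO5 line none of the 6 mitochondrial genes was called in any zone pair of the authors' deposited table. Few genes were called there at all, 1.34% of all entries and 2.87% of those of at least 1 FPKM. HSP60 had 297, 299 and 222 FPKM there, and its Proximal and Medial levels were the highest of the 9 line and zone values. CPN10, the lid of the same chaperonin and not titled as a heat shock gene, had 464, 199 and 88.2 FPKM in the SPT line and 259, 323 and 457 FPKM in the PUB25 line. It fell in the first line and rose in the second between Distal and Proximal cells in the authors' deposited tables.

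**Figure D2:**
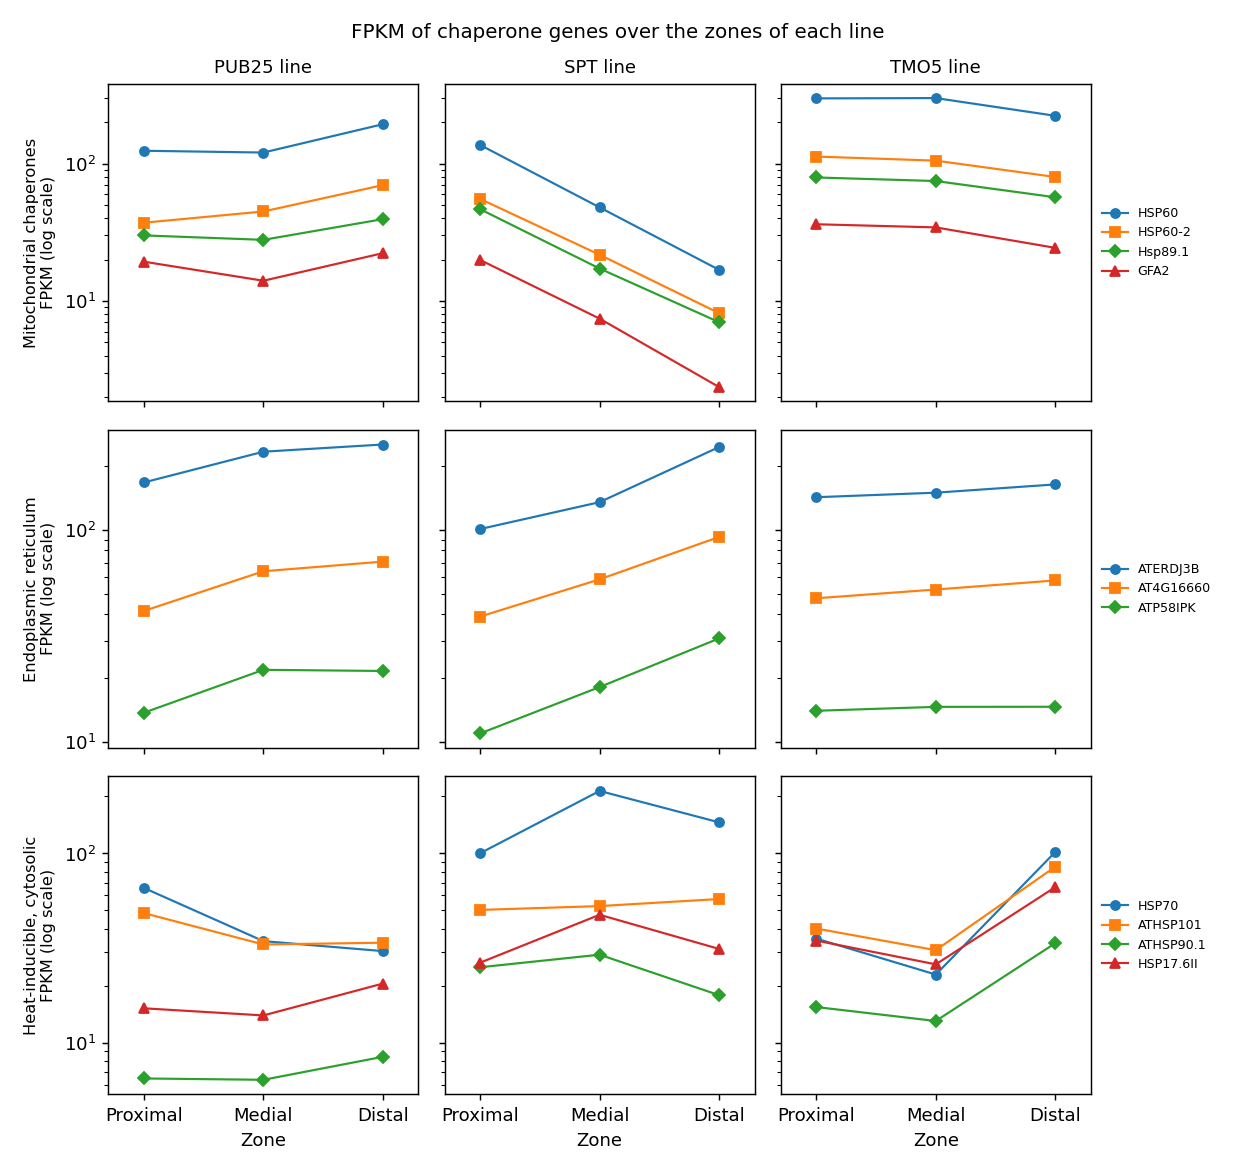
FPKM (log axis) of 11 chaperone genes over the Proximal, Medial and Distal zones, 1 column of panels per line and 1 row per group of genes; points are the authors' single pooled values without error, joined by lines for each gene. The mitochondrial genes slope down in the SPT line, with HSP60 at 16.9 FPKM in Distal cells, and the endoplasmic reticulum genes slope up in the PUB25 and SPT lines. The heat-inducible cytosolic genes dip at Medial and peak at Distal in the TMO5 line.

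Between Distal and Proximal cells, 14 heat shock genes were called in both meristem lines in the authors' deposited tables, which is 53.8% of the 26 called in the PUB25 line and 45.2% of the 31 called in the SPT line. Of these, 5 rose in both, 5 fell in both, and 4 rose in the PUB25 line and fell in the SPT line. The 5 that rose in both were ERDJ3B, AT4G16660, P58IPK, HSP70-3 and AT1G77020, and the 5 that fell in both were Hsp70-2, ATJ1, EDA3, AT2G21510 and AT2G41520. The 4 with opposite calls were HSP60, HSP60-2, Hsp89.1 and HSP23.6-MITO. Opposite calls made up 28.6% of the shared calls, against 27.5% of the 3670 entries called in both lines over the whole tables, so the share was near that of all genes. Cell type markers also moved between these zones. Of 20 such markers, 5 rose and 10 fell in SPT Distal cells, by the authors' deposited table. That is 75%, against 25.6% of all entries and 47.9% of those of at least 1 FPKM. In PUB25 Distal cells 9 rose and 6 fell in the authors' deposited table, again 75%, against 19.4% and 37.3%. The markers summed to 767 FPKM in Distal and 392 FPKM in Proximal SPT cells, and to 377 and 529 FPKM in PUB25 cells. The SPT sums hold XCP2 at 368 FPKM in Distal and 2.78 FPKM in Proximal cells, and CASP1 at 173 and 1.33 FPKM. KNOLLE, a marker of dividing cells, fell in Distal cells of both lines in those tables, with log2 folds of −2.60 in the SPT line and −0.71 in the PUB25 line. It also fell in Distal over Proximal cells of the TMO5 line (−1.27, q = 0.00777 in the authors' deposited table). CYCB1;1, also of dividing cells, fell in the SPT line (−1.73, q = 0.00549) but had no call in the PUB25 line (−0.28, q = 0.267), by the same tables. The part of these markers in the chaperone results was not tested.

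**Figure D3:**
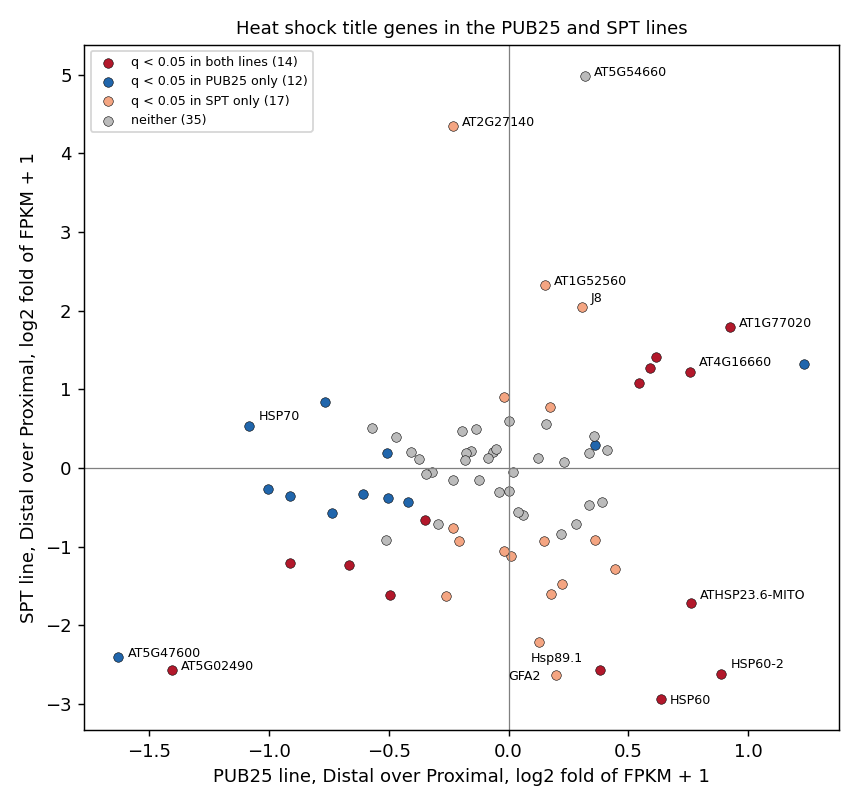
Distal over Proximal log2 fold of FPKM + 1 of the 78 genes in the PUB25 line (horizontal axis) and the SPT line (vertical axis); each point is 1 gene without error, coloured by whether the authors' q value was under 0.05 in both lines, 1 line or neither. HSP60, HSP60-2, Hsp89.1 and HSP23.6-MITO (ATHSP23.6-MITO) lie at the lower right, with positive PUB25 and negative SPT folds.

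Of 4 chaperones of the endoplasmic reticulum, 3 rose in Distal over Proximal cells of both meristem lines in the authors' deposited tables. In that pair 13.3% of all entries and 24.8% of those of at least 1 FPKM rose in the SPT line. The same shares were 10.4% and 19.9% in the PUB25 line. ERDJ3B, a J-domain partner of the lumenal HSP70 BiP, had 101, 135 and 245 FPKM over the Proximal, Medial and Distal cells of the SPT line. It rose in Distal cells with a log2 fold of 1.27 (q = 0.000359 in the authors' deposited table). In the PUB25 line it had 167, 233 and 252 FPKM and a log2 fold of 0.59 (q = 0.00110 in the authors' deposited table). AT4G16660, an HSP70 of this compartment, had 39.0, 58.4 and 92.5 FPKM in the SPT line, 41.5, 63.8 and 70.8 FPKM in the PUB25 line and 47.6, 52.3 and 57.7 FPKM in the TMO5 line. P58IPK, another J-domain protein of the lumen, had 10.98, 18.2 and 30.8 FPKM in the SPT line and 13.8, 21.9 and 21.6 FPKM in the PUB25 line.

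Proximal cells were the lowest zone of both meristem lines for these 3 genes. ERDJ2B, also of this compartment, had log2 folds of 0.24 in the SPT line and −0.05 in the PUB25 line, neither called. None of the 4 was called in the TMO5 line, where 1.34% of all entries and 2.87% of those of at least 1 FPKM were called. The grouping was again made after the values had been seen. BIP1 and BIP2, BiP genes outside the 78, also rose in Distal over Proximal cells of both meristem lines in the authors' deposited tables. BIP2 had 88.2, 147 and 235 FPKM in the SPT line. BIP3 rose for that pair in the SPT line only. SHD, an HSP90 of this compartment outside the 78, had no such call in either line (q = 0.179 in SPT and 0.205 in PUB25).

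Members of the cytosolic HSP70 family did not move together. HSC70-1 (chr5:553745-556442) had 747, 386 and 307 FPKM over the Proximal, Medial and Distal cells of the SPT line and fell in Distal cells (log2 fold −1.28, q = 0.00697 in the authors' deposited table). HSP70-3 (chr3:2903147-2905729), a close relative, had 238, 545 and 504 FPKM there and rose (log2 fold 1.08, q = 0.0203 in the authors' deposited table). The pair thus changed places as the more abundant of these transcripts, and the difference between them was not tested. In the PUB25 line HSC70-1 had 553, 580 and 754 FPKM with no call, and HSP70-3 had 166, 224 and 242 FPKM and rose by a log2 fold of 0.54 (q = 0.00544 in the authors' deposited table). Only 0.368% of the 50-base windows of the HSP70-3 coding sequence, and none of that of HSC70-1, occurred in another coding sequence.

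Hsp70-2 (AT5G02490, chr5:547563-552647), another cytosolic HSP70 gene, fell in Distal cells of both meristem lines in the authors' deposited tables. It had 45.5, 8.81 and 6.82 FPKM in the SPT line (log2 fold −2.57, q = 0.000359) and 29.7, 14.3 and 10.6 FPKM in the PUB25 line (−1.40, q = 0.000407). In xylem cells it had 10.5, 11.8 and 12.0 FPKM and no call. The heat-inducible HSP70 gene (AT3G12580, chr3:3988670-3993792) had 65.7, 34.4 and 30.5 FPKM in the PUB25 line and fell in Distal cells (log2 fold −1.08, q = 0.000407 in the authors' deposited table). Its SPT levels were 100, 214 and 146 FPKM, and it rose there in Medial over Proximal cells (log2 fold 1.08, q = 0.00393 in the authors' deposited table).

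The plastid HSP70 cpHsc70-1, which works in protein import and folding in the stroma, had 99.2, 57.6 and 34.9 FPKM in the SPT line and fell in Distal cells (log2 fold −1.48, q = 0.000359 in the authors' deposited table). In the PUB25 line its levels of 78.7, 68.9 and 91.9 FPKM gave no Distal over Proximal call. CR88, the plastid HSP90 and not among the 78 genes, had 54.2, 19.1 and 7.77 FPKM in the SPT line and fell there in Distal over Proximal cells. It rose in the PUB25 line at 30.4, 28.9 and 42.3 FPKM, by the authors' deposited tables. CLPB3, another plastid chaperone outside the 78, fell in the PUB25 line for that pair (log2 fold −0.74, q = 0.000407 in those tables). In the SPT line CLPB3 had no call (q = 0.613).

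Of the HSP90 genes, HSP81-2, a constitutive cytosolic form, had 159, 108 and 83.7 FPKM in the SPT line and fell in Distal over Proximal cells (log2 fold −0.92, q = 0.0115 in the authors' deposited table). It had 144, 139 and 185 FPKM in the PUB25 line and 317, 300 and 255 FPKM in the TMO5 line, with no call between Distal and Proximal cells in either. Of the 50-base windows of its coding sequence 24.1% also occur in another gene, most of all in HSP81-3, so its reads could have been split between them and its values are uncertain. HSP90.1, the heat-inducible form, was less abundant than HSP81-2 in every zone of every line, at 25.1, 29.2 and 17.9 FPKM in the SPT line and 6.47, 6.37 and 8.42 FPKM in the PUB25 line, with no call there.

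Most calls among the DnaJ genes of the meristem lines were falls. Between Distal and Proximal cells 2 of 30 rose and 7 fell in the PUB25 line, and 2 rose and 8 fell in the SPT line, by the authors' deposited tables. The called shares, 30% in the PUB25 line and 33.3% in the SPT line, lay between the shares of all entries and of those of at least 1 FPKM given above. Rises outnumbered falls among all entries called, with 3241 rises and 2804 falls in the PUB25 line and 4149 rises and 3848 falls in the SPT line. The median log2 fold of the DnaJ genes was −0.10 in the PUB25 line and −0.22 in the SPT line, against −0.01 and 0.07 for the entries of at least 1 FPKM in these lines. AT5G18750 had 7.55, 3.19 and 0.850 FPKM in the SPT line and fell by 2.21 on the log2 scale in Distal cells (q = 0.000359 in the authors' deposited table). It was picked as the DnaJ gene with the lowest SPT fold, after its values had been seen. AT1G77020 rose in Distal over Proximal cells of both lines in the authors' deposited tables, with 1.84, 10.7 and 8.87 FPKM in the SPT line and 0.251, 0.331 and 1.38 FPKM in the PUB25 line. The most abundant DnaJ gene, AT1G21080, had 27.96, 36.4 and 53.1 FPKM in the SPT line and rose there (log2 fold 0.90, q = 0.00288 in the authors' deposited table). AT1G74250 fell there with 36.8, 24.0 and 16.4 FPKM (q = 0.0363), and AT5G23590 fell in the PUB25 line with 26.9, 19.5 and 19.9 FPKM (q = 0.0223), by the same tables.

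J8, a J-domain protein of the chloroplast, stood at 49.4, 103 and 206 FPKM over the Proximal, Medial and Distal cells of the SPT line and rose in every SPT zone pair of the authors' deposited table, with a Distal over Proximal log2 fold of 2.04 and q = 0.000359. PUB25 cells had 46.5, 76.6 and 57.7 FPKM, highest in Medial cells. In the TMO5 line it had 14.9, 9.10 and 34.9 FPKM, lowest in Medial cells, and the log2 fold of 1.83 between Distal and Medial cells did not pass (q = 0.432 in the authors' deposited table).

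Among the small HSP genes of the meristem lines, 1 rose and 1 fell between Distal and Proximal cells of each line in the authors' deposited tables, 15.4% of the 13 and below the share of all entries in both lines. AT1G52560, encoding heat shock protein 26.5, had 2.97, 23.64 and 19.0 FPKM in the SPT line and rose (log2 fold 2.33, q = 0.000359 in the authors' deposited table). Its PUB25 levels stayed at or under 0.619 FPKM. AT5G54660, encoding class VI heat shock protein 21.7, had 0.185, 12.5 and 36.5 FPKM in the SPT line, the widest fold of the 78 genes at 4.98 on the log2 scale. Its Distal over Proximal q value was 0.371 and did not pass, while its Distal over Medial difference did (log2 fold 1.47, q = 0.000359 in the authors' deposited table). AT2G27140, titled only as a heat shock family protein, followed a like course with 0.351, 11.6 and 26.4 FPKM and rose in Distal over Proximal cells (q = 0.0300 in the authors' deposited table). Both genes were near or at 0 in the other lines, at no more than 0.456 FPKM. AT3G10680, titled as heat shock-related, had 0.285, 1.54 and 2.02 FPKM in the PUB25 line, the widest called rise there (log2 fold 1.23, q = 0.00731 in the authors' deposited table). The neighbouring class II genes HSP17.6II and HSP17.6A both rose in Distal over Medial PUB25 cells in the authors' deposited table, with log2 folds of 0.53 and 0.87. AT5G47600, titled as heat shock protein 14.7, had 7.31, 1.54 and 1.69 FPKM in the PUB25 line and fell in Distal cells (log2 fold −1.63, q = 0.00568 in the authors' deposited table).

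In the xylem cells of the TMO5 line the called heat shock genes all rose in Distal over Medial cells. In that pair 6 of the 78 genes rose and none fell in the authors' deposited table. This is 7.69% of the genes, against 1.02% of all entries and 2.17% of those of at least 1 FPKM, and all 318 calls of the whole table were rises. The median log2 fold of the 78 genes was −0.01, against −0.03 for entries of at least 1 FPKM. The 6 are HSP70, HSP101, HSP90.1, HSP17.6II, AT2G20560 and Hsp70b, all of which had their lowest xylem level in Medial cells.

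HSP70 (AT3G12580) had 35.5, 22.9 and 102 FPKM over the Proximal, Medial and Distal xylem cells, a log2 fold of 2.10 for Distal over Medial with q = 0.00777 in the authors' deposited table, the smallest that table holds. HSP101 (AT1G74310, chr1:27935298-27940190), the disaggregase, had 40.1, 30.8 and 85.0 FPKM and a log2 fold of 1.43 with the same q value in the authors' deposited table. HSP90.1 (AT5G52640, chr5:21352399-21355361) had 15.4, 13.03 and 33.5 FPKM, and rose by a log2 fold of 1.30 with the same q value there. Distal cells were highest for all 3 genes, and Proximal cells lay nearer to Medial than to Distal cells.

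AT2G20560 (chr2:8847445-8850010), a DnaJ gene, had 11.8, 9.29 and 26.9 FPKM in the same cells, with a log2 fold of 1.44 and q = 0.0180 in the authors' deposited table. HSP17.6II (AT5G12020, chr5:3882237-3882938), a cytosolic class II small HSP, had 34.6, 25.95 and 66.3 FPKM, with a log2 fold of 1.32 and q = 0.0259 there. Hsp70b (chr1:5502189-5504535), an inducible HSP70 named because its call completes the 6, had 15.1, 13.4 and 29.8 FPKM and a log2 fold of 1.1 with q = 0.0259 in that table. HSP17.6A, the neighbour of HSP17.6II on chromosome 5 and the second class II gene, had 21.3, 11.8 and 37.0 FPKM and a log2 fold of 1.57 that did not pass (q = 0.105 in the authors' deposited table). AT1G54050, of class III, likewise had 19.5, 12.5 and 30.9 FPKM with no call.

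For Distal over Proximal xylem cells, 2 genes rose and none fell in the authors' deposited table (2.56%, against 0.724% of all entries and 1.57% of those of at least 1 FPKM). They were HSP101, with a log2 fold of 1.06 (q = 0.0392), and HSP90.1, with a log2 fold of 1.07 (q = 0.0300). For Medial over Proximal cells none of the 78 was called by the authors' test, against 0.0961% of all entries and 0.210% of those of at least 1 FPKM. The deposited table gives no unadjusted p-value to set beside that count, and no other tool could be run. The TMO5 line had 2 libraries per zone and far fewer calls over all genes than the meristem lines.

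By size alone, at least 2-fold on log2(FPKM + 1) and with no test, 11 of the 78 genes were higher in Distal than in Medial xylem cells and none was lower, against 5.61% of all entries past that size in either direction. Among entries of at least 1 FPKM, 10.5% were higher and 0.469% lower past that size. Between Distal and Proximal xylem cells 8 genes passed that size (4.69% of all entries did), and between Medial and Proximal cells none did (1.63%). Of the 8, 7 were higher and 1 lower in Distal cells. Entries of at least 1 FPKM gave 8.08% higher and 1.22% lower for Distal over Proximal, and 0.609% and 2.58% for Medial over Proximal. The PUB25 line had 5 such genes for Distal over Proximal (9.11% of all entries), 2 for Medial over Proximal (5.38%) and none for Distal over Medial (3.51%).

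**Figure D4:**
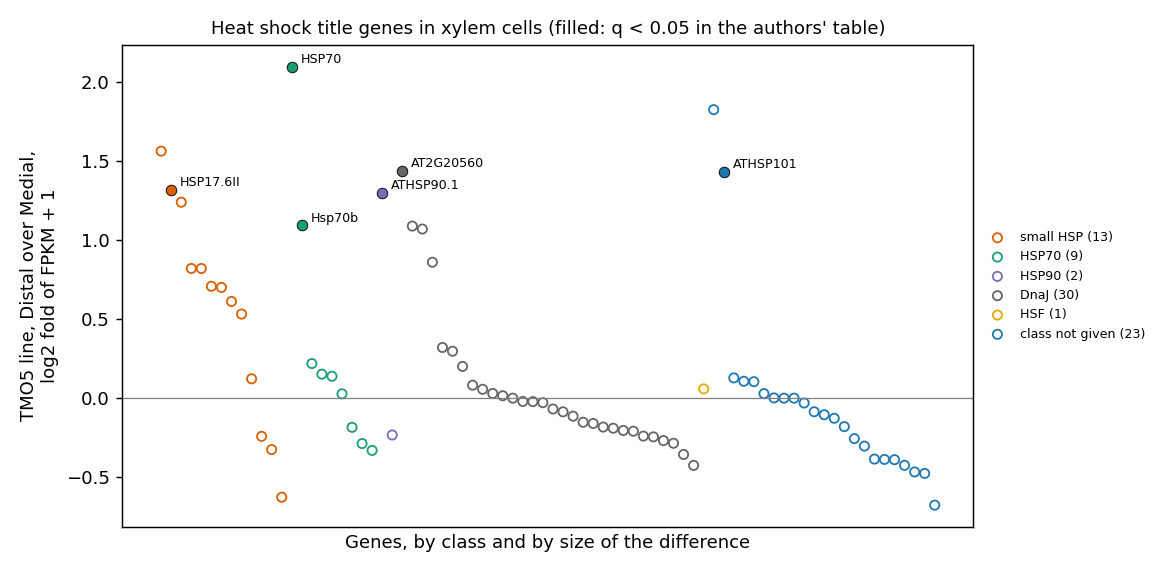
Distal over Medial log2 fold of FPKM + 1 in the xylem cells of the TMO5 line, 1 point per gene without error, grouped and coloured by the class the title gives; filled points passed 0.05 by the q value the authors deposited. The 6 filled points lie between 1.1 and 2.10 and belong to 4 of the title classes and the genes without one, while most DnaJ genes lie near 0.

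Of the 6 genes called in xylem cells, HSP17.6II also rose in Distal over Medial PUB25 cells (q = 0.0369 in the authors' deposited table), with 15.2, 13.9 and 20.5 FPKM, again lowest in Medial cells. HSP90.1 was likewise lowest in Medial PUB25 cells, with no call. HSP101, AT2G20560 and Hsp70b were also lowest there. They fell in Medial over Proximal PUB25 cells (q = 0.00709, 0.0499 and 0.0112 in the authors' deposited table). HSP70 fell in that pair too, but had its lowest PUB25 level in Distal cells. None of these 4 had a Distal over Medial call in that line. HSP101 had 48.4, 33.0 and 33.8 FPKM over the PUB25 zones and fell in Distal over Proximal cells (log2 fold −0.51, q = 0.00953 in the authors' deposited table), and it had 50.3, 52.7 and 57.5 FPKM in the SPT line with no call. HSP17.6II had 26.5, 47.4 and 31.3 FPKM in the SPT line, where it rose in Medial over Proximal cells (q = 0.0230 in the authors' deposited table). AT2G20560 had 21.5, 33.5 and 24.9 FPKM in the SPT line and Hsp70b 20.0, 28.8 and 27.9 FPKM. Medial cells thus had the highest SPT value for both, with no call for either gene in any SPT zone pair. These differences between lines were not tested.

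Other genes moved with this xylem pattern. All 8 genes of a list of wound and protoplasting responses were measured, and 6 of them rose in Distal over Medial xylem cells in the authors' deposited table, with summed levels of 655 FPKM in Distal and 230 FPKM in Medial cells. In that pair 1.02% of all entries and 2.17% of those of at least 1 FPKM rose. The same list rose in 5 of 8 genes between Distal and Proximal SPT cells (sums of 3937 FPKM in Distal and 1816 FPKM in Proximal cells) and fell in 6 of 8 in the PUB25 line (sums of 2184 FPKM in Distal and 3010 FPKM in Proximal cells), by the authors' deposited tables. Between these zones 13.3% of all entries and 24.8% of those of at least 1 FPKM rose in the SPT line. In the PUB25 line 8.98% and 17.4% fell. The markers of vessel maturation XCP2, VND7 and CESA4 also rose in Distal over Medial xylem cells in the authors' deposited table, and XCP2 had 167, 7.54 and 405 FPKM over the Proximal, Medial and Distal cells. The other xylem markers looked at, TMO5, ACL5 and ATHB8, had log2 folds of −0.56, −0.20 and −0.45 in that pair, with no call. The part of wound responses, protoplasting and xylem maturation in the heat shock results was not tested.

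HSF3 (HSFA1B), a constitutive activator of the heat response, is the only factor whose title gave the class. It had 12.8, 7.40 and 5.88 FPKM in the PUB25 line and fell in Distal over Proximal cells (log2 fold −1.01, q = 0.0388 in the authors' deposited table). The SPT line held 12.9, 8.95 and 10.5 FPKM and the TMO5 line 6.91, 7.37 and 7.72 FPKM of it, with no call. Of 19 other measured HSF genes, a list added after the data were seen, 1 rose and 8 fell between Distal and Proximal cells in the PUB25 line, and 5 rose and 2 fell in the SPT line, by the authors' deposited tables. Together these are 47.4% of the 19 in the PUB25 line, above both backgrounds of 19.4% and 37.3%, and 36.8% in the SPT line, between its backgrounds of 25.6% and 47.9%. HSFC1 had 84.9, 35.7 and 18.2 FPKM in the PUB25 line and 17.603, 10.4 and 9.18 FPKM in the SPT line, and fell in both. HSFA6B had 21.1, 203 and 194 FPKM and HSF4 (HSFB1) 42.1, 293 and 222 FPKM in the SPT line, with rises of 3.14 and 2.37 on the log2 scale in Distal over Proximal cells of the authors' deposited table. In xylem cells HSFA2, HSFA6B and HSF4 rose in Distal over Medial cells in the authors' deposited table. They are 15.8% of the 19, against 1.02% of all entries and 2.17% of those of at least 1 FPKM. HSFA2, itself a heat-induced factor, had 24.6, 19.1 and 43.6 FPKM.

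A list of 28 other genes of the pathway (BiP, HSP90 and HSP70 cofactors, organellar chaperones and heat-responsive genes) had 27 measured. Between Distal and Proximal cells 7 rose and 3 fell in the PUB25 line, 3 rose and 8 fell in the SPT line, and 1 rose in the TMO5 line, by the authors' deposited tables. The called share was 37.0% in the PUB25 line and 40.7% in the SPT line, between the same backgrounds. In the TMO5 line it was 3.7%, against 0.724% of all entries and 1.57% of those of at least 1 FPKM. P23-1, an HSP90 cochaperone, had 203, 102 and 61.2 FPKM in the SPT line and fell, and 190, 212 and 288 FPKM in the PUB25 line and rose, in those tables. In Distal over Medial xylem cells 3 rose in the authors' deposited table, namely DREB2A, an activator of stress genes, the immunophilin ROF2 and the cochaperone BAG6. That is 11.1% of the 27, against 1.02% of all entries and 2.17% of those of at least 1 FPKM. DREB2A had 151, 98.0 and 364 FPKM there, lowest in Medial cells like the 6 heat shock genes.

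Across the 9 line and zone values, the 57 genes with at least 1 FPKM throughout were compared by Pearson's r of log2(FPKM + 1), as a description, since the values of a line share their tables. HSP60 was most like HSP60-2 (r = 0.993), GFA2 most like HSP60 (r = 0.992) and Hsp89.1 most like cpHsc70-1 (r = 0.991). AT4G16660 was most like P58IPK (r = 0.956), and AT2G20560 most like Hsp70b (r = 0.955).

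The element shown above was searched on both strands near all 78 genes. In the 250 bases before the annotated gene start, 2 inverted units (GAANNTTC or TTCNNGAA, which may overlap) occurred in 14.1% of the 78 genes, against 16.1% of 27443 protein-coding genes. Small HSP genes held it in 38.5% of 13 windows. It occurred in none of the 6 genes that rose in Distal over Medial xylem cells, against 15.3% of the other 72 genes. None of the 78 had 3 alternating units in that window, against 0.386% of all genes. These counts depend on where the annotated starts lie. The HSP90.1 window (chr5:21352307-21352556), for one, lay in part within the deposited locus of that gene. A second window, added after the data were seen, took the 500 bases before the start of the coding sequence and so includes the leader. There 2 units occurred in 51.3% of the 78 genes, against 33.8% of all, and 3 units in 14.1%, against 1.19% of all.

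All 9 HSP70 genes and 76.9% of the 13 small HSP genes held 2 units in the longer window, against 33.3% of the 30 DnaJ genes. Each of the 6 genes that rose in Distal xylem cells held 2 units there and 3 of them held 3. Of the 21 genes that fell in SPT Distal over Proximal cells 28.6% held 2 units, and of the 10 that rose 60%, while 14.3% of those that fell and 10% of those that rose held 3 units, with calls from the authors' deposited table. A match describes letters in a window and says nothing about binding. The 5 stretches printed above come from the longer window. They lie outside the deposited loci of their genes, except that of AT2G20560, which overlaps its locus.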

How the data were processed

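Total RNA of sorted root protoplasts (QIAGEN RNeasy micro kit, NuGEN Ovation ultralow libraries, per the labels' protocols) was sequenced in 24 libraries. Bowtie, TopHat, Cufflinks and Cuffdiff with the TAIR10 build are named in the submitters' processing notes, without versions or roles. The authors deposited 1 FPKM value per gene, line and zone, with how libraries were pooled not given in the sources used here. The authors' deposited tables also hold a log2 fold per zone pair and a q-value. The smallest q-value differs between the 3 tables, so a joint run of the lines cannot be assumed. No counts or depths were at hand, so no interval or detection limit is given.

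Genes were taken by title from entries of a single gene, without a filter on low values, and classed by the words of the title. Calls are q-values under 0.05, with direction from the FPKM. The log2 ratios of FPKM + 1 were computed here. Where both zones were above 0, the authors' log2 folds matched the ratio of their FPKM to within 4.59e-05. A limma test per library, written down as the design had libraries been at hand, could not be run. The members and lists were chosen with earlier results of these data known. Named were all HSP90 genes, the 4 most abundant genes of each other class, the 3 widest called rises and falls per line between Distal and Proximal, genes at 0 FPKM in 1 zone and at least 5 FPKM in another (there were none), and genes called in opposite directions in 2 lines. Genes named to complete a group of calls or a compartment were chosen after their values were seen.

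Alternatives were a q-value under 0.01, a difference of 2-fold, minimum means of 1 and 5 FPKM, a pseudocount of 0.1, quantile normalization, median centring and, added after the data were seen, equal FPKM sums without AT2G01021. Positions are the deposited loci on TAIR10, counted from 1. Sequences and gene starts are from RefSeq TAIR10.1, and 63 of the 78 loci start and end within 1000 bases of the RefSeq gene. The computation was tested on simulated data. Tools were Python 3.11.15, numpy 2.4.6, pandas 2.3.3 and matplotlib 3.10.9.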

Additional observations from a re-analysis of the deposited data

Results flagged for a closer look

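For 5 genes the effects had opposite directions in 2 lines, both called in the authors' deposited tables for Distal over Proximal cells. The log2 fold of HSP60 was −2.94 in the SPT line and 0.64 in the PUB25 line, that of HSP60-2 was −2.61 and 0.89, that of Hsp89.1 was −2.56 and 0.38, and that of HSP23.6-MITO was −1.71 and 0.76, in the same order of lines. HSP101 had 1.06 in the TMO5 line and −0.51 in the PUB25 line. The lines have separate tables with 1 value per zone, so these differences between lines were not tested.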

How the results depend on the processing

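No paired analysis was possible because the deposited tables hold 1 pooled value per zone. For the same reason neither leaving out each replicate in turn nor a fit with the replicate number as a block was run. Minimum means of 1 or 5 FPKM kept all 9 counts of called heat shock genes within 1.5 times. At a q-value under 0.01 the counts, in the order Distal over Proximal, Medial over Proximal and Distal over Medial, were 15, 7 and 4 in the PUB25 line. For SPT they were 18 for Distal over Proximal and 9 for Distal over Medial, and for TMO5 0 and 3 for these pairs. By a 2-fold difference with no test they were 5, 2 and 0 for the 3 pairs in the PUB25 line, and 8 for Distal over Proximal and 11 for Distal over Medial in the TMO5 line. With both criteria the PUB25 counts were 5, 2 and 0.

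The median log2 fold of the 78 genes was near 0 in most comparisons, and its sign turned in some. Median centring gave 0.0179 for PUB25 Distal over Proximal, −0.0282 for TMO5 Distal over Proximal and 0.0165 for TMO5 Medial over Proximal. Quantile normalization gave 0.0381 and equal FPKM sums 0.0137 for TMO5 Medial over Proximal, and equal sums gave 0.045 for TMO5 Distal over Medial. Equal sums shift every log2 fold by −0.48 for SPT Distal over Proximal, −0.40 for SPT Distal over Medial, −0.31 for PUB25 Distal over Proximal, −0.29 for PUB25 Medial over Proximal and 0.14 for TMO5 Distal over Proximal. No called heat shock gene changed sign under any of these 3 scalings. The spread between libraries and the depth are unknown, which limits every level and fold given. Calls rest on the authors' test alone.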
